A study of Mus musculus with 6 samples.

Results

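The genes that place and remove N6-methyladenosine (m6A), the most common internal mark of mRNA, were followed through 6 RNA-seq libraries of tumour regulatory T cells (Treg cells). The set holds 8 writer genes (Mettl3, Mettl14, Wtap, Virma, Zc3h13, Rbm15, Rbm15b and Cbll1) and 2 eraser genes (Fto and Alkbh5). They were chosen by name as the known writers and erasers, with earlier results of these data known, and found by Ensembl identifier among the 54446 genes of each count table. All 10 passed the filter on low counts.

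Total RNA came from live CD45+ CD4+ Foxp3-GFP+ cells sorted out of tumours that B16F10 cells, an established melanoma line of mouse, had formed under the skin. The 6 libraries fall into 2 groups: 3 are controls, titled WT Control with the genotype Foxp3CreYthdf2fl/+, and 3 are titled Ythdf2 cKO with the genotype Foxp3CreYthdf2fl/fl. Both groups thus carry Cre driven by Foxp3 and at least 1 floxed allele of Ythdf2, which encodes a reader protein that binds m6A, so the controls are not free of the deletion and cells without Foxp3 keep the gene. The titles also number the replicates and give the cage. Cage 1 held controls 1 and 2 with Ythdf2 cKO 1, and cage 2 held control 3 with Ythdf2 cKO 2 and 3. Whether each library is a separate mouse is not stated, so a p-value here measures only the spread between samples, part of which may be technical.

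In the nucleus, METTL3 transfers the methyl group from S-adenosylmethionine to adenosine, and METTL14 is its partner, which holds the RNA substrate and has no catalytic activity of its own. WTAP, VIRMA, ZC3H13, CBLL1 (also called HAKAI), RBM15 and RBM15B form the regulatory part of the complex that brings the catalytic pair to its transcripts. FTO and ALKBH5 are iron- and 2-oxoglutarate-dependent dioxygenases that take the mark off. In T cells the writer complex is known to be needed for homeostatic proliferation and for Treg suppressive function, through m6A on the transcripts of SOCS proteins, which restrain cytokine signals.

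The libraries held 5602053 to 13602069 reads in genes, of which 5271 to 14337 fell in the 10 members. Ythdf2 itself checks the labels and stood at 124, 102 and 93.1 CPM (reads scaled to the library size adjusted by the TMM method) in controls 1 to 3 and at 90.1, 104 and 104 CPM in the Ythdf2 cKO libraries. The groups overlapped, so the genotype is given as labelled. Which exons the floxed allele loses is not stated, and counts over the whole gene do not test it. Of 8 T and Treg cell markers, including Foxp3, Cd3e and Il2ra, 0 were at 0 in any library, and their summed level ran from 3644 to 6766 CPM. The 10 melanoma markers summed to between 58.1 and 596 CPM in cage 1 and between 2806 and 5705 CPM in cage 2, so tumour RNA moved with the cage. Fibroblast markers summed to 2.74 to 8.84 CPM in cage 1 and 9.84 to 142 CPM in cage 2, and macrophage markers to 6.22 to 54.3 and 18.5 to 268 CPM. Mitochondrial ribosomal RNA took 42.6% of the gene reads in control 3 and at most 19.2% in the others.

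Per length of annotated exons, Alkbh5 was the most abundant member and the catalytic writer gene Mettl3 the least. Levels were compared as CPM per kilobase of the union of annotated exons, averaged over all 6 libraries. Alkbh5 stood at 37.0 ± 2.26 CPM per kilobase (SD, n = 6), above 92.8% of the 13172 genes tested, and above Zc3h13 in 6 of 6 libraries. Zc3h13 (25.1 ± 3.42) and Virma (24.5 ± 4.41 CPM per kilobase), the large scaffold proteins of the complex, came next, and their order held in only 4 of 6 libraries. Wtap followed at 13.3 ± 1.38 CPM per kilobase, then Rbm15 at 10.9 ± 0.949, Rbm15b at 7.98 ± 1.19 and Cbll1 at 6.08 ± 0.609. Wtap lay above Rbm15 and Rbm15 above Rbm15b in 6 of 6 libraries, and Rbm15b lay above Cbll1 in 5. Fto stood at 5.26 ± 1.23 CPM per kilobase, below Cbll1 in 4 of 6 libraries and above Mettl14 in 3, so its place between them is not resolved. The catalytic pair closed the order, with Mettl14 at 4.33 ± 1.16 and Mettl3 at 2.85 ± 0.5003 CPM per kilobase, the latter above 38.1% of the genes tested. By this length Mettl14 exceeded Mettl3 in 6 of 6 libraries, by a factor of 1.14 to 2.43.

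The gene length used moved part of this order. The exons of Fto add up to 13031 bases while its longest transcript has 4707, and for Mettl3 the lengths are 5076 and 2159 bases. With the longest transcript as the length Fto rose to 14.6 ± 3.41 CPM per kilobase and place 5 of 10, Wtap to 26.1 ± 2.70 and place 3, and Mettl3 to 6.69 ± 1.18 and place 8, with Mettl14 last at 4.47 ± 1.20. The mean of Mettl3 then lay above that of Mettl14, so the order of the catalytic pair depends on the length used. Alkbh5 stayed first with either length. Which transcripts these cells use cannot be read from counts per gene.

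**Figure D1:**
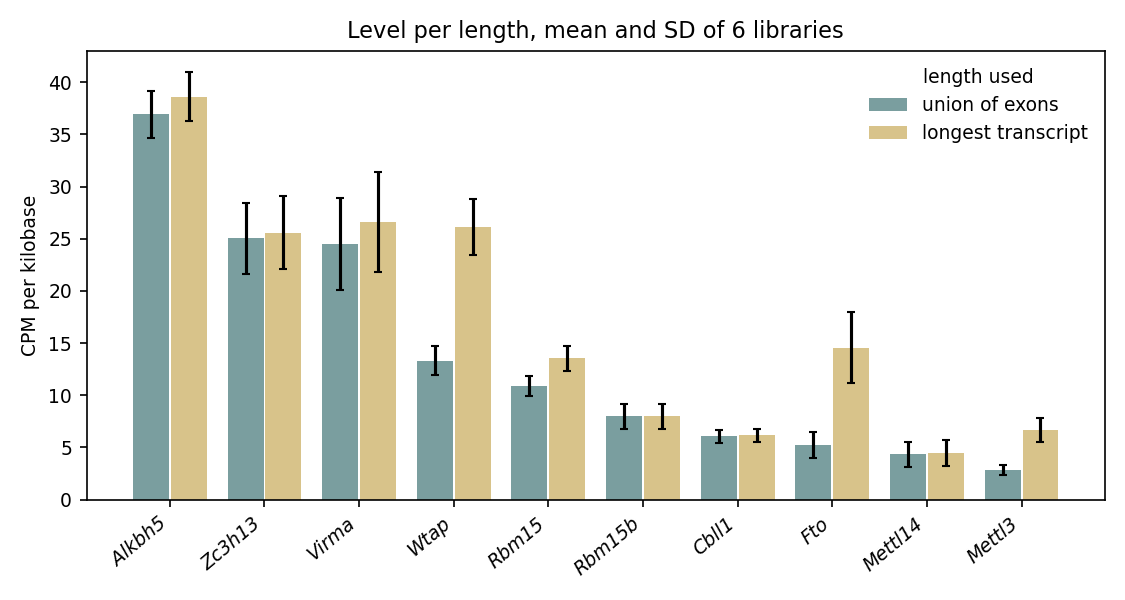
Mean CPM per kilobase of the 10 members over 6 libraries, with error bars of 1 SD, for each of 2 gene lengths. Alkbh5 was highest with either length, at 37.0 and 38.6 CPM per kilobase, while Fto, Wtap and Mettl3 depended on the length used.

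The study asks what deleting Ythdf2 changes in Treg RNA, and between the genotypes 0 of the 10 members passed the test (edgeR adjusted p = 1 for each, from its quasi-likelihood test). Over all 13172 genes 0 passed as well (0%), with 213 at an unadjusted p under 0.05 (1.62%), and DESeq2 and limma-voom also called 0, with 279 and 239 at an unadjusted p under 0.05. These fits leave out the cage. With cage as a further term edgeR again called 0 genes, but 1345 had an unadjusted p under 0.05. None of the 10 members reached an unadjusted p under 0.05 with edgeR in either fit. On counts simulated for these 13172 genes, the genotype test recovered 0 of 200 genes changed 2-fold and 105 of 200 changed 4-fold. The simulated counts held no cage difference, unlike these libraries, so recovery in the real counts may differ. The members' log2 fold changes, as Ythdf2 cKO over control, ran from -0.45 for Mettl3 to 0.26 for Rbm15b with a median of 0.031, and the median of all genes tested was -0.0049.

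Mettl3 (chromosome 14, 52294841 to 52305128, minus strand, mm10) was the member whose genotypes did not overlap. It stood at 17.4, 16.2 and 16.4 CPM in controls 1 to 3, and at 11.3, 12.3 and 13.0 CPM in Ythdf2 cKO 1 to 3. Every Ythdf2 cKO library lay below every control, in cage 1 and in cage 2. The means were 16.7 ± 0.626 and 12.2 ± 0.847 CPM (SD, n = 3 each), and the log2 fold change was -0.45 (standard error 0.25) with 95% bounds of -1.03 and 0.13 (edgeR, unadjusted p = 0.11, adjusted p = 1). Such separation was found for 7.62% of all genes tested and, with Ythdf2 cKO lower, for 4.22%, so 1 of 10 members is near the background. Mettl3 rests on few reads, from 69 in Ythdf2 cKO 1 to 240 in control 2. Its log2 difference was -0.57 within cage 1 and -0.38 within cage 2, and it stayed below 0 in 18 of 18 alternative settings, from -0.50 to -0.31. Mettl3 is singled out here because its genotypes did not overlap, so these signs were largely fixed in advance and add no support.

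The last exons of Mettl3 lie tail to tail with those of Tox4, a chromatin-associated gene on the other strand, and share 933 bases with them. No source used here gives the strand setting of the counting, and without strand the reads of either gene in these bases cannot be told apart. The counting set 1.43% to 2.21% of records aside as ambiguous, and how many of them lay in these bases is not known. The exon lengths used for the levels per kilobase include the shared bases. Tox4 itself stood at 91.7, 88.3 and 71.5 CPM in the controls and at 105, 88.2 and 74.4 CPM in the Ythdf2 cKO libraries, which overlapped. As a ratio chosen after the values were seen, Mettl3 had 0.190, 0.184 and 0.230 reads per Tox4 read in the controls and 0.107, 0.140 and 0.174 in the Ythdf2 cKO libraries.

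Mettl14 (chromosome 3, 123368297 to 123386108) varied most among the members, with an SD of 26.9% of its mean over the 6 libraries. Control replicates 1 to 3 held 38.3, 32.9 and 28.1 CPM, and Ythdf2 cKO 1 to 3 held 18.8, 43.9 and 30.8 CPM. Within cage 1 the Ythdf2 cKO library lay below both controls, and within cage 2 both Ythdf2 cKO libraries lay above the control, with log2 differences of -0.91 and 0.39. A test of this difference between cages gave a genotype by cage term of 1.33 with a standard error of 0.44, which did not pass over all genes (edgeR, unadjusted p = 0.016, adjusted p = 0.27). That test called 6 genes in all (0.0456%), 0 of them members, and cage 1 holds 1 Ythdf2 cKO library and cage 2 holds 1 control. An unadjusted p under 0.05 was common for this term, with 1882 of the 13172 genes tested and 1 of the 10 members. Over all libraries the log2 fold change of Mettl14 between genotypes was -0.084 with a 95% interval from -0.83 to 0.67.

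**Figure D2:**
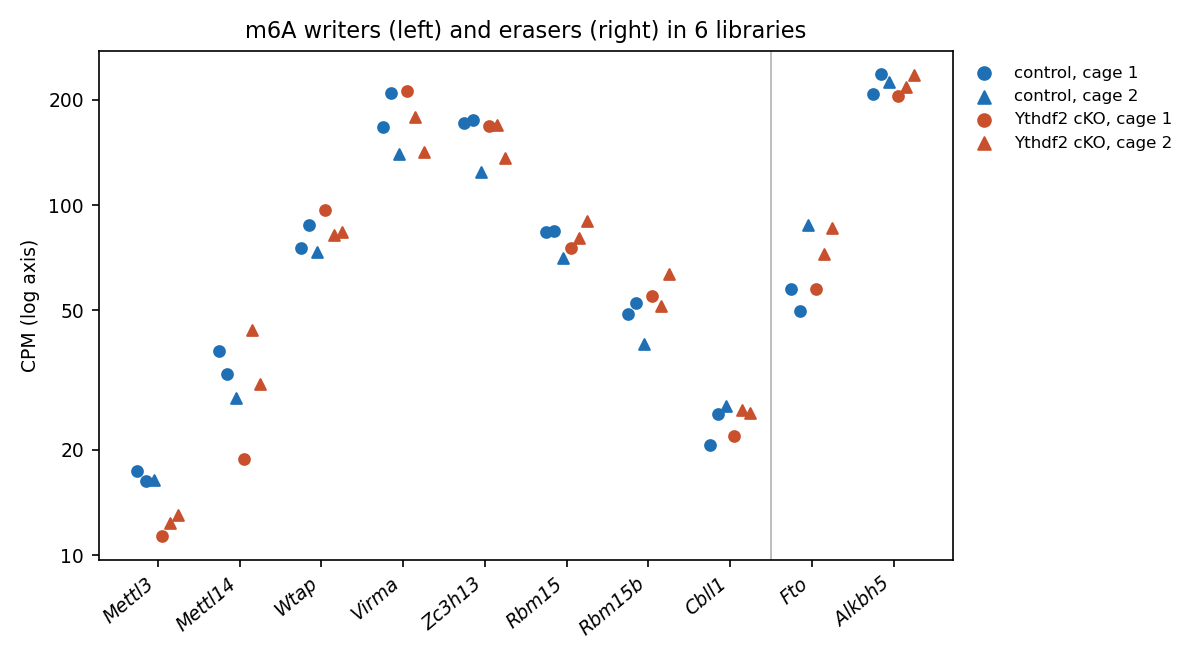
CPM of each member in each library on a log axis, with controls in blue, Ythdf2 cKO in red, cage 1 as circles and cage 2 as triangles. Mettl3 separates by genotype (16.2 to 17.4 against 11.3 to 13.0 CPM) and Fto by cage (49.7 to 57.5 against 72.6 to 87.6 CPM).

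Among the regulatory subunits, Rbm15b had the largest log2 fold change between genotypes. RBM15B and its paralogue RBM15 are RNA-binding proteins that recruit the complex to specific transcripts. Rbm15b (chromosome 9, 106880918 to 106887428) was at 48.9, 52.7 and 40.1 CPM in controls 1 to 3 and at 55.0, 51.3 and 63.7 CPM in the Ythdf2 cKO libraries. The groups overlapped, and the log2 fold change was 0.26 with a 95% interval from -0.16 to 0.68. Rbm15 (chromosome 3, 107325421 to 107333673) averaged 79.6 ± 7.96 CPM over the controls against 81.9 ± 7.51 CPM over the Ythdf2 cKO libraries (SD, n = 3 each).

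Wtap (chromosome 17, 12966796 to 12994169), the adaptor that binds the catalytic pair, averaged 78.8 ± 7.81 CPM over the controls against 87.7 ± 8.07 CPM over the Ythdf2 cKO libraries (SD, n = 3 each). Its groups overlapped, with a low of 73.2 CPM in control 3 and a high of 97.0 CPM in Ythdf2 cKO 1. Cbll1 (chromosome 12, 31484829 to 31499616), a RING-type ubiquitin ligase of the complex, was at 24.2 ± 3.13 and 24.5 ± 2.24 CPM. An antisense gene, Gm29542, shares 704 exon bases with Cbll1 and stood at no more than 0.316 CPM in any library. As the strand setting of the counting is not given, this does not show how many reads fell in the shared bases.

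The 95% intervals set what these libraries can bound. The narrowest belonged to Alkbh5 (chromosome 11, 60536381 to 60558512), which was at 208, 237 and 225 CPM in the controls and at 205, 217 and 235 CPM in the Ythdf2 cKO libraries. Its log2 fold change of -0.027 had an interval from -0.34 to 0.29, and its SD over all 6 libraries was 6.12% of its mean, the smallest among the members. For Mettl3 and Mettl14 the intervals ran from -1.03 to 0.13 and from -0.83 to 0.67. Both span 0, so a fall of the size seen cannot be told from none for either gene. A fall as large as the lower bound is not excluded either.

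**Figure D3:**
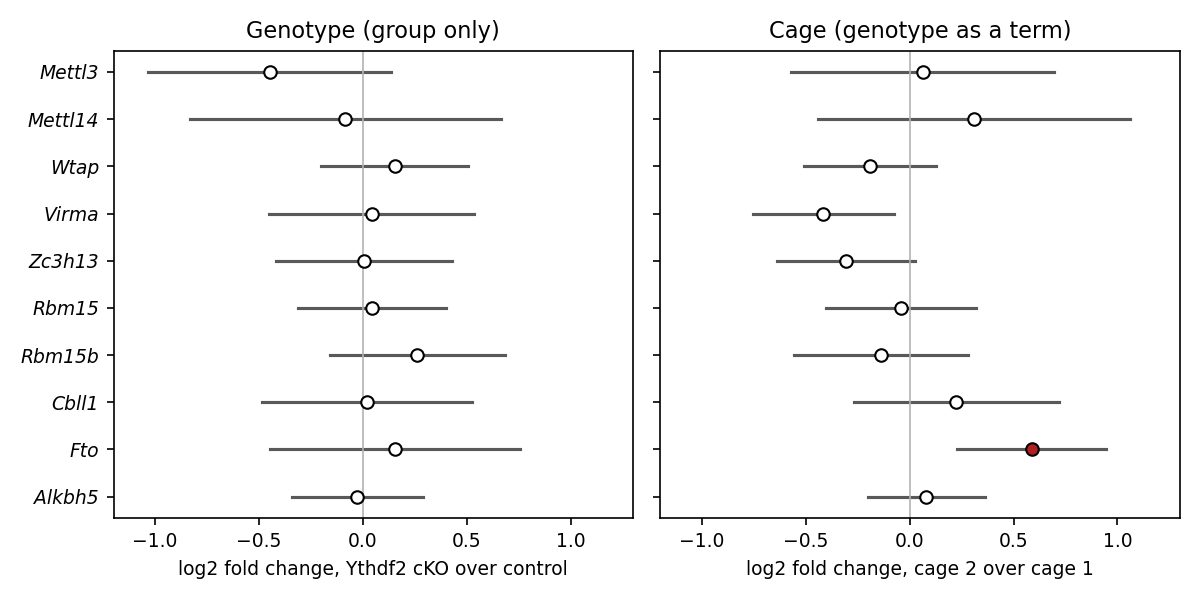
Log2 fold changes of the members with 95% intervals between genotypes (left, genotype as the only term) and between cages (right, genotype as a second term), filled red where the edgeR adjusted p is under 0.05. The filled point is Fto between cages, at 0.59 with an interval from 0.23 to 0.95.

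Between the cages, compared with the genotype as a second term, Fto was higher in cage 2 and no other member passed. With this test 11.5% of all genes tested differed between the cages, 7.83% higher and 3.68% lower in cage 2, so 1 of 10 members is near that share. FTO acts on m6A and on the related mark next to the mRNA cap. Fto (chromosome 8, 91313525 to 91668439, plus strand, mm10) was at 57.5, 49.7 and 57.5 CPM in controls 1 and 2 and Ythdf2 cKO 1, the libraries of cage 1. In control 3 and Ythdf2 cKO 2 and 3, the libraries of cage 2, it was at 87.6, 72.6 and 86.2 CPM. The cages did not overlap, which was so for 27.3% of all genes tested, and within each genotype every library of cage 2 lay above every library of cage 1. As cage 2 over cage 1, the difference was 0.59 on the log2 scale (standard error 0.16, 95% bounds 0.23 and 0.95, edgeR adjusted p = 0.045), or 1.503-fold.

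The call for Fto sits close to the threshold. Leaving out 1 library ended it for control 1 (log2 fold change 0.61), for control 2 (0.52), for control 3 (0.48), for Ythdf2 cKO 1 (0.70) and for Ythdf2 cKO 3 (0.55), with adjusted p-values from 0.070 to 0.20, and so did cage as the only term (0.58, adjusted p = 0.051). With total counts as the only scaling it was 0.25 (adjusted p = 0.50), a setting that moves the median of all genes by cage to -0.32, so Fto lay above that median in either case. Reads of Fto per read of Alkbh5, a ratio chosen after the values were seen, numbered 0.276, 0.210 and 0.281 in cage 1 and 0.3895, 0.334 and 0.366 in cage 2.

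Melanoma markers moved with Fto. Their summed level was 416, 596 and 58.1 CPM in controls 1 and 2 and Ythdf2 cKO 1, and 5705, 2806 and 3882 CPM in control 3 and Ythdf2 cKO 2 and 3. Of the 10 markers 10 were called higher in cage 2, and 2 of them, Tyr and S100b, were at 0 in at least 1 library. Within cage 1 Fto was 57.5, 57.5 and 49.7 CPM at 58.1, 416 and 596 CPM of markers, and within cage 2 it was 72.6, 86.2 and 87.6 CPM at 2806, 3882 and 5705 CPM, so the order of Fto was that of the markers in cage 2 and not in cage 1. With the mean of the markers as a further term, chosen after the data were seen, the cage difference of Fto was 0.95 with a standard error of 0.61 (edgeR adjusted p = 0.64). The mean log2 CPM of the markers was 1.16 to 4.65 in cage 1 and 7.11 to 8.11 in cage 2. That term and the cage thus nearly coincide, and the fit cannot separate them. Of the other lists, 5 of 11 macrophage, 3 of 5 fibroblast and 2 of 5 erythroid markers were also called higher in cage 2. Called lower were 6 of 8 T and Treg cell markers and 1 of 4 CD8 T and NK cell markers, and 0 of 6 B and plasma cell markers were called. The part of RNA from tumour or other cells in the Fto difference was not tested, and in these bulk libraries more cells of a type and more RNA per cell cannot be told apart.

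**Figure D4:**
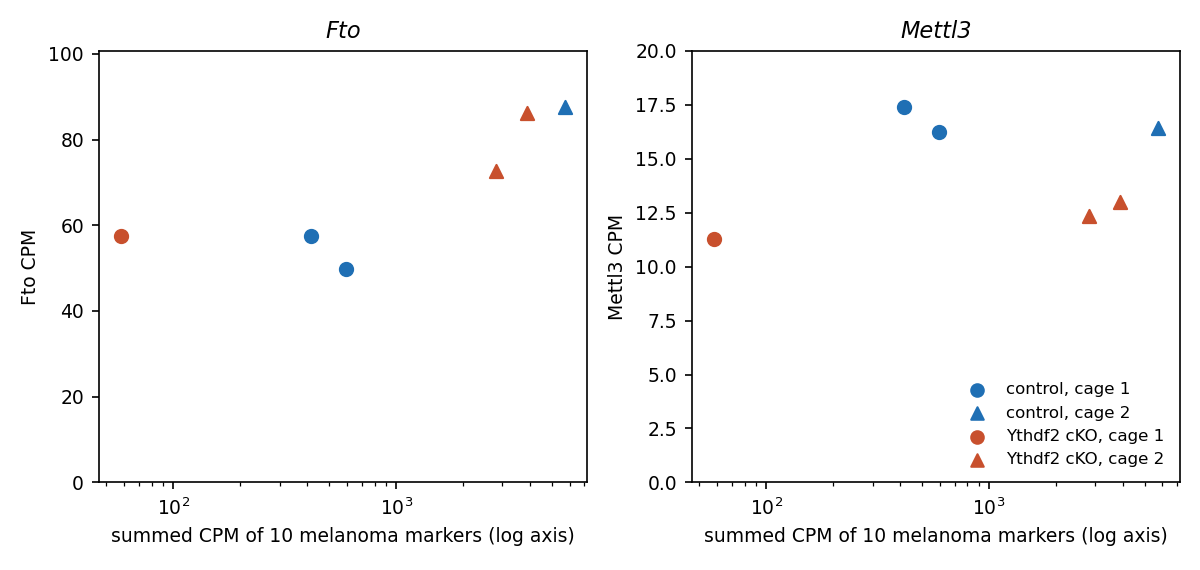
Fto (left) and Mettl3 (right) CPM against the summed CPM of 10 melanoma markers on a log axis, 1 point per library, with colours for genotype and symbols for cage. Fto is high in the 3 libraries of cage 2, which have 2806 to 5705 CPM of markers, while Mettl3 is low in the 3 Ythdf2 cKO libraries at marker levels from 58.1 to 3882 CPM.

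Fto starts 263 bases from Rpgrip1l, a gene of the primary cilium that runs in the opposite direction. Rpgrip1l was at 11.8, 16.1 and 16.2 CPM in the libraries of cage 1 and at 17.4, 15.5 and 11.5 CPM in those of cage 2, with a log2 fold change by cage of 0.027 (standard error 0.31, edgeR adjusted p = 0.97). The neighbour that shares the start region therefore overlapped between cages where Fto did not. Genes on the other strand that share exon bases with Fto, the antisense gene 4831440D22Rik and Gm45427, a gene model of the annotation type TEC, were at 0 CPM in all 6 libraries. Without the strand setting of the counting, these values do not show how many reads fell in the shared bases.

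The start regions of Fto and Mettl3, the member called between cages and the member whose genotypes did not overlap, are shown from 250 bases before to 50 after the start, 5′ to 3′ on the gene's strand, with CpG dinucleotides in capitals (RefSeq, GRCm38.p6; chr8:91313275-91313574, plus strand, and chr14:52305075-52305374, minus strand).
Fto: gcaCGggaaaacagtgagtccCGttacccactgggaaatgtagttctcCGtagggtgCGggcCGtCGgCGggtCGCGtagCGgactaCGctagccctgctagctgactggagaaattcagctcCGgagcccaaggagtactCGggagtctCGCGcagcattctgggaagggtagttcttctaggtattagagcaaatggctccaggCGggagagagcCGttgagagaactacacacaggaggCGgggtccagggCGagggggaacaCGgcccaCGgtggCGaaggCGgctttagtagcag
Mettl3: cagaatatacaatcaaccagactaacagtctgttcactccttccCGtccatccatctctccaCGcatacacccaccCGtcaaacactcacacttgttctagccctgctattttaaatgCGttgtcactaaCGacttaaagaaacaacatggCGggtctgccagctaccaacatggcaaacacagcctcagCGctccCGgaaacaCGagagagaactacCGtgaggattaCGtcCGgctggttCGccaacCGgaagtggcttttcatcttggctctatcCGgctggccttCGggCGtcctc
Of the members 8 have such a window in the RefSeq table used. All 8 were rich in CpG, with 17 in Mettl3, 23 in Fto and up to 46 in Rbm15b, against a median of 7 over 27025 genes, of which 31.9% had 17 or more. GC content ran from 52.0% in Mettl3 to 75.3% in Rbm15b, against a median of 52.7%. The letters TATAAA, searched on both strands, were in 0 of the 8 windows and in 14.2% of all windows. CCGGAA, the core recognised by ETS factors, was found on either strand in Mettl3, Wtap, Zc3h13 and Cbll1 and in 15.2% of all windows. GGGCGG was found in Wtap, Zc3h13, Rbm15, Rbm15b, Cbll1 and Alkbh5 and in 35.9% of all windows. CCAAT was found in Wtap, Rbm15 and Alkbh5 and in 37.9% of all windows. CCGGAA and GGGCGG each contain a CpG, and the shares over all windows are not matched for CpG. These matches describe the letters in the window only.

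Virma and Zc3h13, the scaffold genes, leaned the other way by cage without passing the test. VIRMA guides methylation towards the 3′ part of mRNAs, and ZC3H13 keeps the complex in the nucleus. Virma (chromosome 4, 11485958 to 11550684) was at 167, 209 and 212 CPM in cage 1 and at 140, 179 and 142 CPM in cage 2, in the order of libraries used for Fto. The cages overlapped through control 1 and Ythdf2 cKO 2. Its log2 fold change was -0.42 with a 95% interval from -0.75 to -0.077 (edgeR, unadjusted p = 0.021, adjusted p = 0.11), and it was below 0 in 16 of 16 alternative settings. By cage, 3497 of the 13172 genes tested and 2 of the 10 members had an unadjusted p under 0.05. Zc3h13 (chromosome 14, 75284373 to 75344426) was at 171, 175 and 168 CPM in cage 1 and at 124, 169 and 136 CPM in cage 2. Its log2 fold change of -0.31 had an interval from -0.64 to 0.023 (edgeR adjusted p = 0.22). Markers of T and Treg cells summed to 6067 to 6766 CPM in cage 1 and 3644 to 5033 CPM in cage 2, with 6 of 8 called lower in cage 2, and their part in the lower values was not tested.

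Cbll1 was the other member whose cages did not overlap, at 20.7, 25.2 and 21.9 CPM in cage 1 and 26.7, 26.1 and 25.5 CPM in cage 2. The gap between 25.2 and 25.5 CPM is small, and its log2 fold change was 0.22 with an interval from -0.27 to 0.72 (edgeR adjusted p = 0.57). Wtap, Rbm15 and Rbm15b had log2 fold changes by cage of -0.19, -0.040 and -0.14, Mettl3 and Mettl14 of 0.062 and 0.31, and Alkbh5 of 0.079. In all, 5 members lay above and 5 below 0 by cage, with a median of 0.011 against 0.013 over all genes tested.

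The genes around the writers and erasers gave no call in either comparison, against 0% of all genes tested between genotypes and 11.5% between cages. Each list holds only 5 to 11 genes, so 0 calls by cage in a list says little. Among 6 genes of other RNA methyltransferases and their partners, which modify single small RNAs, ribosomal RNA or the cap-adjacent adenosine, 0 passed between genotypes and 0 between cages. The nearest were Zcchc4, which methylates large-subunit ribosomal RNA, with a log2 fold change by cage of 1.03 (standard error 0.48, edgeR adjusted p = 0.21), and Pcif1, the cap-adjacent writer, with -0.23 (standard error 0.17, adjusted p = 0.45). Ythdf2 cKO 1 held 3.11 CPM of Zcchc4, and the other libraries held 10.5 to 12.9 CPM.

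Of the 5 YTH readers, which bind m6A directly, 0 passed in either comparison. All 5 had a log2 fold change below 0 by cage, with a median of -0.13, as had 6486 of the 13172 genes tested. Ythdc1, the nuclear reader, had -0.38 (standard error 0.12, edgeR adjusted p = 0.084) and Ythdc2, a reader with a helicase domain, -0.45 (standard error 0.31, adjusted p = 0.40). Of 11 other m6A-binding proteins 0 passed. Igf2bp2, which stabilises methylated transcripts, was at 0 in Ythdf2 cKO 1 and highest in control 3, at 4.89 CPM, and Prrc2a was at 440 and 582 CPM in the same libraries.

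The supply of the methyl donor was followed through 6 genes, of which 0 passed. Ahcy, which clears the by-product S-adenosylhomocysteine, was lowest in Ythdf2 cKO 1 at 8.03 CPM, against 17.7 to 22.7 CPM elsewhere, and Mtap, of the methionine salvage route, ranged from 20.8 to 53.5 CPM. Of 7 further AlkB-family dioxygenase genes, relatives of Fto and Alkbh5, 0 passed in either comparison. Alkbh4 had a log2 fold change by cage of -1.29 (standard error 0.49, edgeR adjusted p = 0.13) and Alkbh1 of 0.69 (standard error 0.29, adjusted p = 0.17). All 35 genes of these lists passed the filter on low counts.

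The genes whose log2 CPM followed a member most closely over the 6 libraries were sought for Mettl3, Alkbh5 and Fto among the genes tested. Members, pseudogenes and genes with clone-like names, such as Gm or Rik, were passed over, also in the counts of genes above 0.9. For Mettl3 they were Hnrnpa0 (Pearson r = 0.99), Ap2m1 (r = 0.99) and Fip1l1 (r = 0.98), with 81 genes above 0.9. Those nearest to Alkbh5 were Elp6 (r = 0.97), Zfyve1 (r = 0.97) and Alkbh6 (r = 0.96), with 20 genes above 0.9. For Fto they were Tln2, Lrrn4cl and Smtn (r = 0.99 each), with 456 genes above 0.9, and all 3 were called higher in cage 2 (edgeR adjusted p = 0.0060, 0.018 and 0.023). Lrrn4cl was near the floor, at 0 to 4.26 CPM. These are the highest of many values over only 6 libraries that share cages, so they describe likeness and carry no test.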

How the data were processed

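Total RNA of sorted tumour Treg cells was read in 6 libraries made with a strand-preserving SMARTer kit (labels' protocols). The authors deposited raw read counts per gene, 1 table per library, not normalized. Trimmomatic 0.39, HISAT2 2.1.0, HTSeq, DESeq2 and the build mm10 are named in the submitters' processing notes. The annotation release is not given in the sources used here.

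Of 54446 genes, 54409 matched GENCODE M21, which gave symbols, coordinates and exon lengths. Reads in no gene, 24.6% to 35.8% of records, stayed out. Genes were filtered with filterByExpr (minimum count 10, total 15), scaled by TMM and tested with edgeR 4.0.16 (quasi-likelihood, R 4.3.3). Benjamini-Hochberg adjustment ran over 13172 genes, with a threshold of 0.05. The genotype was fitted as the only term, the cage with genotype, and the interaction with both. Alternatives used DESeq2 1.42.0, limma-voom (limma 3.58.1), other scalings and filters, other terms, and each library left out. The gene test was tested on simulated data.

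Members and lists were chosen with earlier results of these data known. All members are named, as are the 2 genes with the smallest p of each list and, for Mettl3, Alkbh5 and Fto, the 3 genes of most like pattern. Neighbouring genes and read ratios were added after values were seen. Reads are not independent molecules. All 6 libraries differed from each other beyond counting noise (lowest chi-square of any pair over its degrees of freedom 16.8, genes with reads in the pair).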

Additional observations from a re-analysis of the deposited data

How the results depend on the processing

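Between genotypes 0 genes were called in 17 of 19 alternatives, with 0 to 0 when each library was left out, and 33 were called without the low-count filter and 460 without control 3 and Ythdf2 cKO 1 (added after the data were seen), where the libraries left have genotype and cage coinciding. No member was among them. Between cages 1516 genes were called. The count was 2349 with DESeq2, 2347 without the low-count filter and 849 with cage as the only term. With the melanoma markers as a term, which nearly coincides with the cage, it was 3. It was 660 to 1234 with each library left out (735 for control 2, 826 for Ythdf2 cKO 1 and 660 for Ythdf2 cKO 3). With total counts 646 genes were higher and 732 lower in cage 2, against 1031 and 485. Without both control 3 and Ythdf2 cKO 1 the cage term could not be fitted. The interaction called 6 genes with edgeR and 4 with limma-voom. The cause of these changes was not tested.

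Replicate numbers were not used as pairs in the main fit: deviations of same-numbered libraries correlated at 0.38, -0.22 and 0.52. The pair at -0.22, of replicate 2, is the only one of these from different cages. Differently numbered libraries of the same cage correlated at 0.42 (control 2 with Ythdf2 cKO 1) and 0.26 (control 3 with Ythdf2 cKO 2). The check therefore cannot tell pairing by number from the cage. With the replicate block 0 genes were called between genotypes, as without it.

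Log2 fold changes between genotypes that missed the threshold changed sign with total counts for Mettl14 (0.023), Alkbh5 (0.12), without control 3 and Ythdf2 cKO 1 for Mettl14 (0.08), Virma (-0.22), Zc3h13 (-0.17), Alkbh5 (0.033), with cage as a term for Cbll1 (-0.057), Fto (-0.022), with melanoma markers as a term for Zc3h13 (-0.003983). With each library left out they ran from -0.42 to 0.17 for Mettl14, from -0.086 to 0.12 for Cbll1, from -0.012 to 0.46 for Fto, from -0.087 to 0.014 for Alkbh5, from -0.11 to 0.20 for Virma, from -0.11 to 0.096 for Zc3h13, from -0.038 to 0.093 for Rbm15. Log2 fold changes by cage that missed the threshold changed sign with total counts for Mettl3 (-0.28), Mettl14 (-0.024), Cbll1 (-0.11), Alkbh5 (-0.26), with cage as the only term for Mettl3 (-0.12), with melanoma markers as a term for Mettl3 (-0.29), Mettl14 (-1.69), Alkbh5 (-0.26). With each library left out they ran from -0.27 to 0.20 for Rbm15, from -0.35 to 0.084 for Rbm15b, from -0.044 to 0.18 for Mettl3, from -0.35 to 1.00 for Mettl14. Mettl3, Rbm15b and Wtap between genotypes, and Fto, Virma, Wtap and Zc3h13 by cage, kept their sign in every alternative run. Without both control 3 and Ythdf2 cKO 1, the difference of Fto between genotypes was 0.58.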
